A study of Mus musculus with 8 samples.

Results

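The actin network that positions the meiotic spindle was followed through 10 genes, Fmn2, Spire1, Spire2, Myo5b, Rab11a, Arpc2, Actb, Actg1, Cfl1 and Pfn1, taken by symbol from a table of 25574 genes. All 10 were found in the table, and all 10 passed the filter that left 14292 genes for testing. The libraries came from mouse oocytes at the stage of nuclear envelope breakdown (NEBD), when the germinal vesicle has dissolved and the first meiotic spindle is being built. In SSP-profiling, a polysome fractionation for scarce samples, the lysate is spread by size on a 10 to 50% sucrose gradient, and the heavy fractions carry mRNAs loaded with several ribosomes. The paper could not exclude that heavy stored particles holding inactive ribosomes sediment there as well. RNA of the pooled polysomal fractions gave the P dataset and RNA of the pooled non-polysomal fractions the NP dataset, with 4 libraries each. The NP fractions hold ribosomal subunits, single ribosomes and stored mRNA particles. The top fraction of the gradient was left out of both, and the paper allows that it held a small part of the stored particles. The question asked of each gene was how its mRNA was divided between the datasets. Both datasets shared everything but the part of the gradient. The oocytes were from 8 weeks old CD1 mice, taken 46 h after 5 IU of pregnant mare serum gonadotropin, held in 100 µM IBMX during isolation, freed of cumulus cells, cultured without IBMX for 180 min and given 0.1 mg/ml cycloheximide for 10 min before 200 of them were lysed together. A library therefore describes a pool of oocytes and not single cells, and p-values measure the spread between these libraries.

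In the mouse oocyte the spindle forms near the centre and is moved to the cortex along a cytoplasmic mesh of actin filaments, so that the first division is very unequal. The mesh is nucleated by the formin Fmn2 together with Spire1 and Spire2, which act from the surface of vesicles marked by Rab11a and carried by the motor Myo5b. The Arp2/3 complex, of which Arpc2 is a subunit, builds branched filaments at the cortex, Actb and Actg1 are the cytoplasmic actins, Pfn1 hands actin monomers to growing filament ends and Cfl1 severs old filaments.

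Translation of many stored oocyte mRNAs depends on the 3′ end, where a cytoplasmic polyadenylation element (CPE) together with the polyadenylation hexamer allows a short poly(A) tail to be lengthened during maturation. The last 100 bases of 1 annotated transcript per gene were therefore searched on the sense strand for TTTTAT or TTTTAAT (CPE), AATAAA or ATTAAA (hexamer) and TGTANATA (Pumilio motif), where a base may belong to several motifs, and a match is a description of the letters only. A CPE was present in 2 of the 10 genes, beside 18.2% of 14169 transcripts searched in the same way. Rab11a held both forms, starting 90 and 61 bases before the transcript end, and Spire1 held 1, starting 49 bases before it. A hexamer was found in 9 of the 10, beside 83.4% of all transcripts, and was not found in Spire2, whose 3′ UTR of 121 bases was the shortest of the 10 and held a Pumilio motif 53 bases from the end, a motif present in 4.66% of transcripts. The 3′ UTR of Spire1 was the longest, at 3082 bases.

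The 3′ UTR sites of 4 genes are shown for these features, in the GRCm38 assembly and 5′ to 3′ on the strand of the mRNA, with CPE and hexamer letters in capitals. The first, in the last exon of Rab11a at chr9:64715342-64715371 on the minus strand, is shown for its CPE, and the second, in Fmn2 at chr1:174822700-174822729 on the plus strand, for its 2 hexamers. Those of Actb (chr5:142903129-142903158, minus strand) and Actg1 (chr11:120345695-120345724, minus strand) are shown because neither cytoplasmic actin had a CPE in this window.
Rab11a: atttggacttttTTTTAATctattgatttg
Fmn2: ttatatgaaAATAAAatgaatAATAAAata
Actb: tgacttgagaccAATAAAagtgcacacctt
Actg1: attgtgtaaagaAATAAAagtgctgcagta

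**Figure D1:**
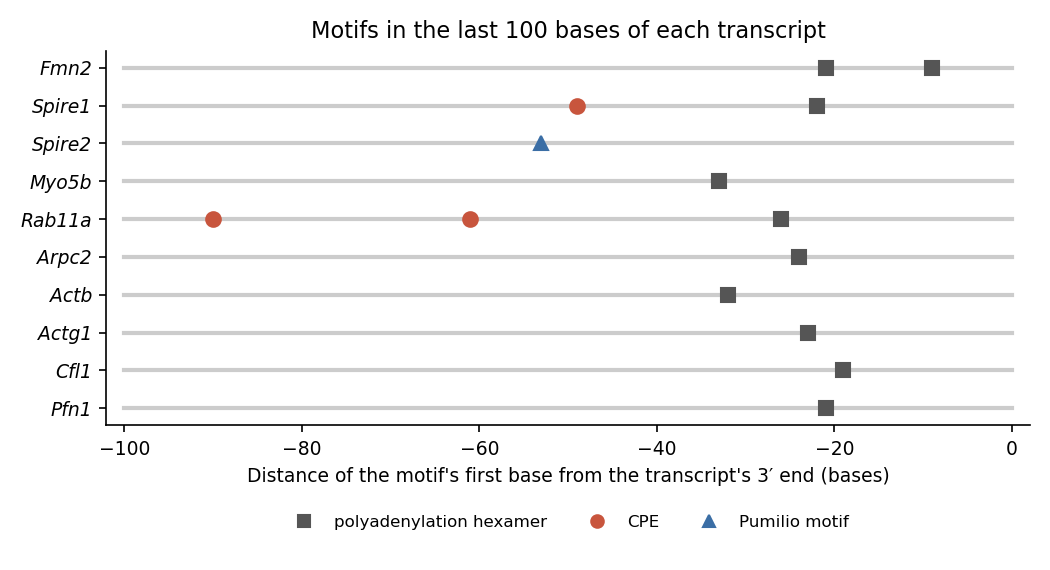
Distance in bases of each motif's first base from the 3′ end of the transcript (horizontal axis) for the 10 genes (rows), with squares for the hexamer, circles for the CPE and a triangle for the Pumilio motif. Rab11a and Spire1 are the 2 genes with a CPE, and Spire2 is the gene without a hexamer.

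Values were FPKM, the fragments of a gene divided by its length and by the depth of the library, so that levels of genes of different length can be compared. They are relative to each library's own total, and a P over NP ratio compares shares of both libraries and not amounts of RNA. In pooled oocytes, fewer cells holding an mRNA and less of it per cell cannot be told apart. Depth, read from the spacing of the FPKM values, ranged from 1299377 to 7594637 for NP and from 2677946 to 4699328 for P. Steps of this spacing, called reads below, summed over genes to more than the depth in every library. In P replicate 1 they summed to 8077110 against a depth of 4699328. The unit of both numbers is therefore not settled, and they serve to compare libraries and genes only. The RNA was amplified without molecular identifiers, so the reads behind a value are not independent molecules, and read counts below cover counting error only. The median FPKM of the tested genes ranged from 3.41 to 5.55 over the NP libraries and from 1.05 to 3.02 over the P libraries, and 8.64% to 18.9% of tested genes were at 0 in NP against 22.2% to 36.5% in P. The 14 oocyte markers summed to 7745 to 15495 FPKM in NP and to 10154 to 43937 in P. The 16 cumulus and granulosa markers summed to 15.3 to 145 in NP and to 20.0 to 64.0 in P, with Foxl2, Inhba, Has2, Ptx3 and Fst at 0 in all 8 libraries. In NP 10 of the 16, and in P 11, stayed below 1 FPKM in every library, and the others reached at least 1 in some library. Of 6 stromal and endothelial markers, Col1a1 and Cdh5 were at 0 in all 8 libraries and the NP sums ran from 11.1 to 63.5 and the P sums from 6.36 to 77.7. In NP 4 of these, and in P 5, stayed below 1 FPKM in every library. Of 6 blood markers, 4 were in the table and summed to at most 35.9 in NP and to 0 in P, with Hba-a1, Hba-a2 and Ptprc at 0 in all 8. Cd68 alone carried the NP sum. The part of other cells in the results was not tested.

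None of the 10 genes was called different between P and NP. In limma on log2(FPKM + 1), adjusted by Benjamini-Hochberg over all genes tested, with a threshold of 0.1, the adjusted p-values of the 10 genes lay between 0.670 (Rab11a) and 0.936 (Actg1), and 0 of them had an unadjusted p below 0.05, beside 9.47% of all genes with NP higher and 0.476% with P higher. The same fit called 3 of 14292 genes (0.021%), all higher in NP. Over all genes it called 20 without a trend, and voom on recovered reads called 94 of 12446, with 0 of the 10 genes among either. The paper's DESeq2 comparison, another test at another threshold, reported transcripts enriched in either dataset. Few calls in the limma fit therefore do not show that the datasets were alike. In 0 of the 10 did all 4 NP libraries lie above all 4 P libraries, beside 5.92% of all genes tested, and in 0 did all 4 P lie above all 4 NP, beside 0.357%. With each library scaled to one median FPKM both counts were again 0, beside 2.09% and 5.04%. The P over NP ratio of the dataset means lay between 0.580 (Fmn2) and 2.25 (Actg1).

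The levels of the 10 genes ran from a few FPKM to those of some of the most abundant transcripts. In NP the order of the means, from the highest, was Spire1, Myo5b, Rab11a, Cfl1, Actb, Arpc2, Actg1, Pfn1, Spire2 and Fmn2, and every neighbouring pair had overlapping library ranges, although Actg1 was above Pfn1 in 4 of 4 libraries. In P the order was Myo5b, Spire1, Rab11a, Actg1, Cfl1, Arpc2, Actb, Spire2, Pfn1 and Fmn2, and Actb and Spire2 were the only neighbours whose ranges did not overlap. By their means, Spire1, Myo5b and Rab11a thus led in both datasets, and Fmn2 was the lowest in both. Single libraries departed from this order, as in P replicate 3, where Fmn2 (10.7 FPKM) lay above Actg1 (7.70 FPKM).

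**Figure D2:**
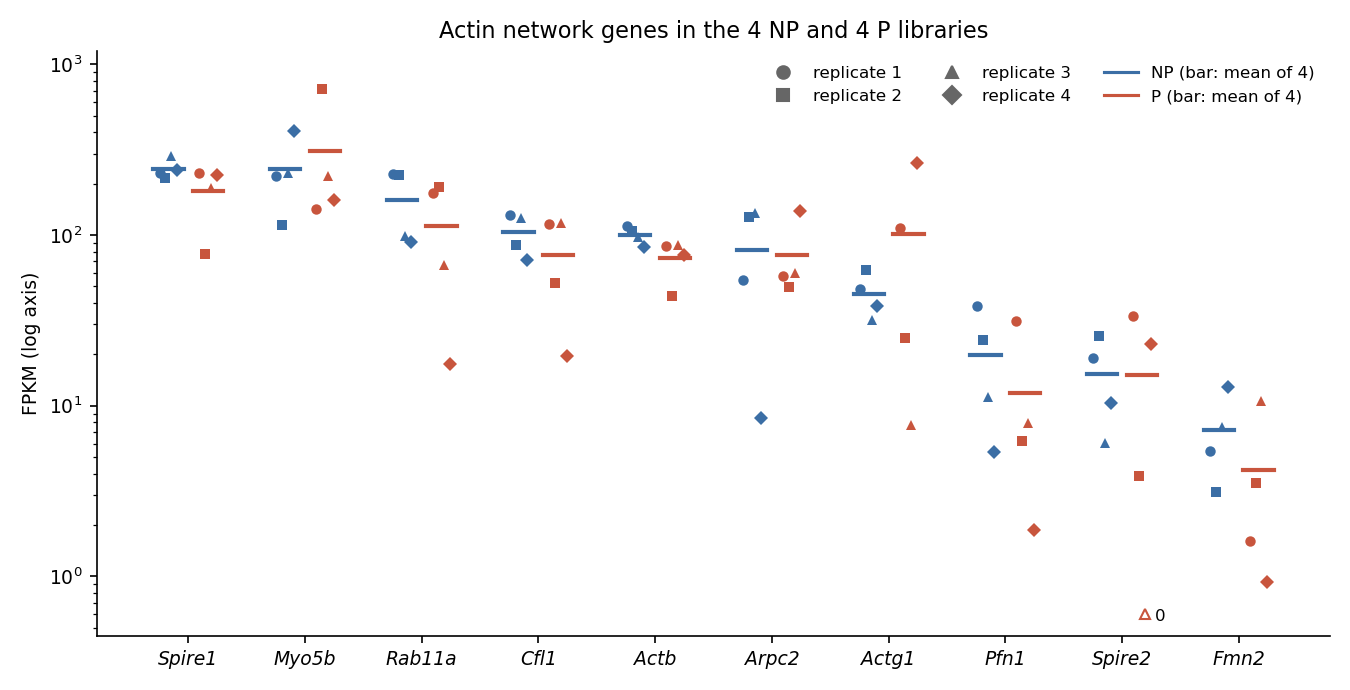
FPKM on a log axis for each gene (horizontal axis, ordered by the NP mean) in the 4 NP (blue) and 4 P (red) libraries, with replicate numbers as symbols and bars at the means of 4. The datasets overlap for every gene, Spire2 is at 0 in P replicate 3 (open symbol), and Actg1 in P runs from 7.70 to 264.

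Spire1 (chr18:67488209-67552777, minus strand), a nucleator that seeds short filaments and anchors Fmn2 to vesicles, measured 230, 216, 289 and 241 FPKM in NP replicates 1 to 4 and 229, 77.6, 189 and 225 in P. P replicate 2 stood low, P replicate 3 lay just below the NP range and the other P libraries lay within it. The means were 244 ± 31.8 in NP and 180 ± 70.8 in P (SD, n = 4), and the log2 fold change of P over NP was −0.54 (SE 0.54, adjusted p = 0.694 in limma), or −0.18 without P replicate 2. Its mean position among the 14292 tested genes of a library, as a percentile of FPKM, was 97.0 in NP and 95.6 in P. Between 1289 and 10908 reads a library were recovered for it, more than for Spire2 or Fmn2 in any library.

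Spire2 (chr8:123332713-123369515, plus strand), the paralog that shares this role, was far less abundant. It measured 19.0, 25.8, 6.07 and 10.4 FPKM in NP and 33.7, 3.88, 0 and 23.1 in P. P held both its highest and its lowest values, so the NP range lay inside the P range. The means were 15.3 ± 8.79 and 15.2 ± 16.0, with a log2 fold change of −0.85 (SE 1.07, adjusted p = 0.747). No read was recovered for it in P replicate 3, where a floor of 3 reads corresponds to 0.290 FPKM, and without that library the log2 fold change was 0.15. The annotated gene Gm20388 spans Spire2 on the same strand and was listed between 0.947 and 56.0 FPKM, so reads of both cannot be told apart where their exons coincide.

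Fmn2 (chr1:174501825-174822717, plus strand), the formin that elongates the straight filaments of the mesh, measured 5.41, 3.11, 7.48 and 12.9 FPKM in NP and 1.62, 3.54, 10.7 and 0.929 in P. P replicates 1 and 4 lay below every NP library, and P replicate 3 lay above 3 of the 4. The means were 7.22 ± 4.17 and 4.19 ± 4.46, and the log2 fold change was −0.88 (SE 0.89, adjusted p = 0.700), from −1.39 without P replicate 3 to −0.53 without P replicate 4. The 16 reads recovered in P replicate 4 and the 26 in NP replicate 2 were the fewest, against up to 629 in NP replicate 4. With mean percentiles of 55.5 and 55.2, Fmn2 stood near the middle of the tested genes in both datasets.

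Rab11a (chr9:64715299-64737758, minus strand), the GTPase that marks the vesicles on which the nucleators sit, measured 227, 223, 98.4 and 90.6 FPKM in NP and 177, 191, 67.1 and 17.6 in P. Replicates 1 and 2 were high and replicates 3 and 4 low in both datasets. The means were 160 ± 75.5 and 113 ± 84.6, with a log2 fold change of −0.86 (SE 0.75, adjusted p = 0.670). Without P replicate 4, its lowest library with 141 reads, the value was −0.15.

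Myo5b (chr18:74440936-74771493, plus strand), the myosin V motor that moves these vesicles along actin, measured 221, 115, 231 and 408 FPKM in NP and 142, 720, 221 and 159 in P. P replicate 2 stood apart at the top, and the other 3 P libraries lay within the NP range. The means were 243 ± 122 and 310 ± 275, and the log2 fold change was 0.15 (SE 0.64, adjusted p = 0.925). It was −0.37 without P replicate 2 and −0.16 without NP replicate 2, the lowest NP library. Myo5b and Spire1 held the highest mean percentiles of the 10 genes, those of Myo5b being 96.3 and 96.7.

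Arpc2 (chr1:74236497-74268209, plus strand), which forms the core of the Arp2/3 complex with Arpc4, measured 54.8, 128, 134 and 8.51 FPKM in NP and 57.3, 49.7, 60.2 and 138 in P. NP replicate 4 was the lowest and P replicate 4 the highest of the 8 libraries. The means were 81.2 ± 60.3 and 76.2 ± 41.2, and the log2 fold change was 0.36 (SE 0.81, adjusted p = 0.855), or −0.48 without NP replicate 4. Arpc2 was the 1 gene of the 10 whose coefficient of variation was larger in NP (74.3%) than in P (54.0%).

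Actb (chr5:142903115-142906754, minus strand), the cytoplasmic β-actin, had the smallest spread of the 10 in both datasets. It measured 113, 106, 97.0 and 84.7 FPKM in NP and 86.0, 43.8, 87.2 and 76.5 in P. The NP values lay above the P values but for NP replicate 4, which fell between the P libraries. The means were 100.1 ± 12.2 and 73.4 ± 20.3, and the log2 fold change was −0.49 (SE 0.53, adjusted p = 0.717), or −0.26 without P replicate 2. Its coefficients of variation were 12.2% in NP and 27.7% in P.

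Actg1 (chr11:120345690-120348542, minus strand), the cytoplasmic γ-actin, measured 48.3, 62.5, 31.9 and 38.2 FPKM in NP and 110, 25.0, 7.70 and 264 in P. The NP libraries lay close together, while P replicates 1 and 4 were above all of them and P replicates 2 and 3 below all of them. The means were 45.2 ± 13.4 and 102 ± 117, and the log2 fold change was 0.18 (SE 0.91, adjusted p = 0.936), or −0.61 without P replicate 4 and −0.20 without P replicate 1. The highest P library was 34.3 times the lowest, from 91 reads in replicate 3 to 1882 in replicate 4. Over 97.6% of its transcript, Actg1 has near-identical copies in the genome, the processed pseudogenes Gm8399 (chr13:81064604-81066503, 98.7% identity) and Gm12715 (chr4:103563325-103565229, 99.7%). The sources used here do not say how reads with several matches were counted, so its values are uncertain. No such copy, of at least 150 bases at 98% identity, was found for the other 9 genes.

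Cfl1 (chr19:5490485-5494029, plus strand), cofilin, measured 132, 87.1, 126 and 71.1 FPKM in NP and 116, 52.4, 118 and 19.5 in P. Replicates 1 and 3 were high and replicates 2 and 4 low in both datasets. The means were 104 ± 29.4 and 76.5 ± 48.7, with a log2 fold change of −0.70 (SE 0.66, adjusted p = 0.685). Without P replicate 4 it was −0.16. Snx32, on the opposite strand, overlaps the gene and was listed between 0 and 25.7 FPKM, and the sources used here do not say whether counting used strand.

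Pfn1 (chr11:70651850-70654644, minus strand), profilin, measured 38.2, 24.3, 11.3 and 5.37 FPKM in NP and 31.4, 6.23, 7.95 and 1.86 in P. Replicate 1 was the highest and replicate 4 the lowest in both datasets, the P value of replicate 4 resting on 12 reads. The means were 19.8 ± 14.6 and 11.9 ± 13.3, and the log2 fold change was −0.92 (SE 0.90, adjusted p = 0.691). It ran from −1.55 without P replicate 1 to −0.38 without P replicate 4.

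The fold changes of the 10 genes were of about the size of their standard errors or smaller. Of the 10, 7 had a log2 fold change below 0 and 3 above 0, with a median of −0.62, beside a median of −0.39 over all genes tested, of which 10209 lay below 0 and 4083 above. This split depended on the scaling, since with each library scaled to one median FPKM all 10 lay above 0, with medians of 0.70 for the 10 genes and 0.21 for all genes. With quantile normalization 7 lay below 0, with medians of −0.27 and −0.018. The order of both medians also turned with the pseudocount, the median of the 10 genes staying at −0.63 at pseudocounts of 0.1 and 0.01 while that of all genes was −0.83 and −1.15, and with voom, at −0.53 against −0.83. The narrowest 95% interval was that of Actb, from −1.62 to 0.65, and the widest that of Spire2, from −3.14 to 1.44. Each interval included 0, and differences of the sizes inside it were not excluded by this fit, which did not pair libraries.

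**Figure D3:**
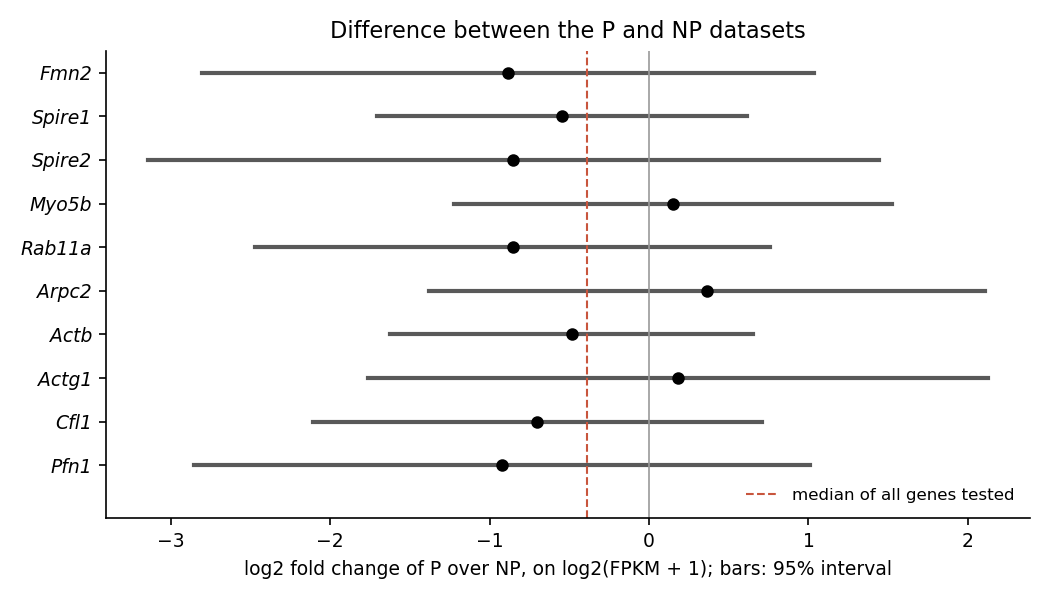
Log2 fold change of P over NP on log2(FPKM + 1) for each gene (points) with its 95% interval from limma (bars), on the FPKM as deposited. All 10 intervals include 0, and the dashed line marks the median of all genes tested, −0.39, which became 0.21 with each library scaled to one median FPKM, where all 10 points lay above 0.

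The spread among P libraries was larger than among NP libraries for most of these genes. The coefficient of variation was higher in P for 9 of the 10, with medians of 48.6% in NP and 81.6% in P. It was higher in P for 73.2% of 12467 genes with a value above 0 in both datasets, with medians of 75.1% and 110%, so the 10 genes shared the direction of most genes. No P library was at one end for all genes. P replicate 4 was the lowest P library for Fmn2, Rab11a, Cfl1 and Pfn1 and the highest for Arpc2 and Actg1, and P replicate 2 was the lowest for Spire1, Arpc2 and Actb and the highest for Myo5b and Rab11a.

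A ratio of FPKM within a library does not depend on the scaling between libraries, but the added 1 makes it depend in part where values are low. On FPKM + 1, 4 such ratios were compared by 2-sided exact permutation tests over 70 assignments, in which the smallest possible p is 0.0286. Actg1 over Actb, the balance of the cytoplasmic actins, was −1.21, −0.75, −1.57 and −1.13 on the log2 scale in NP and 0.36, −0.78, −3.34 and 1.77 in P. Actg1 was the lower actin in all 4 NP libraries and in P replicates 2 and 3, and the higher in P replicates 1 and 4. The means were −1.16 ± 0.34 and −0.50 ± 2.17 (SD, n = 4), and the exact permutation p was 0.6 (0.857 after Benjamini-Hochberg over the 4 ratios).

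Spire2 lay below Spire1 in all 8 libraries, with a log2 ratio of −4.08 ± 1.03 in NP and −4.39 ± 2.19 in P (exact permutation p = 0.857, adjusted 0.857, n = 4). Its difference of P minus NP, −0.31, was −1.12 at a pseudocount of 0.1, while the differences of the other ratios changed less. Pfn1 lay below Cfl1 in all 8 libraries, at −2.60 ± 0.96 and −2.83 ± 0.77 (exact permutation p = 0.771, adjusted 0.857). Arpc2 over the median of 8 other Arp2/3 subunits, from which Actr3b, the paralog of Actr3, was left out, was 0.47, 1.73, 1.74 and −2.41 in NP and 0.51, 1.19, 2.03 and 2.29 in P. It was above 0 in every library but NP replicate 4, and the dataset means of 0.38 ± 1.96 and 1.50 ± 0.82 did not differ beyond their spread (exact permutation p = 0.343, adjusted 0.857). Their difference of 1.12 was 0.19 without NP replicate 4. No ratio met the threshold.

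**Figure D4:**
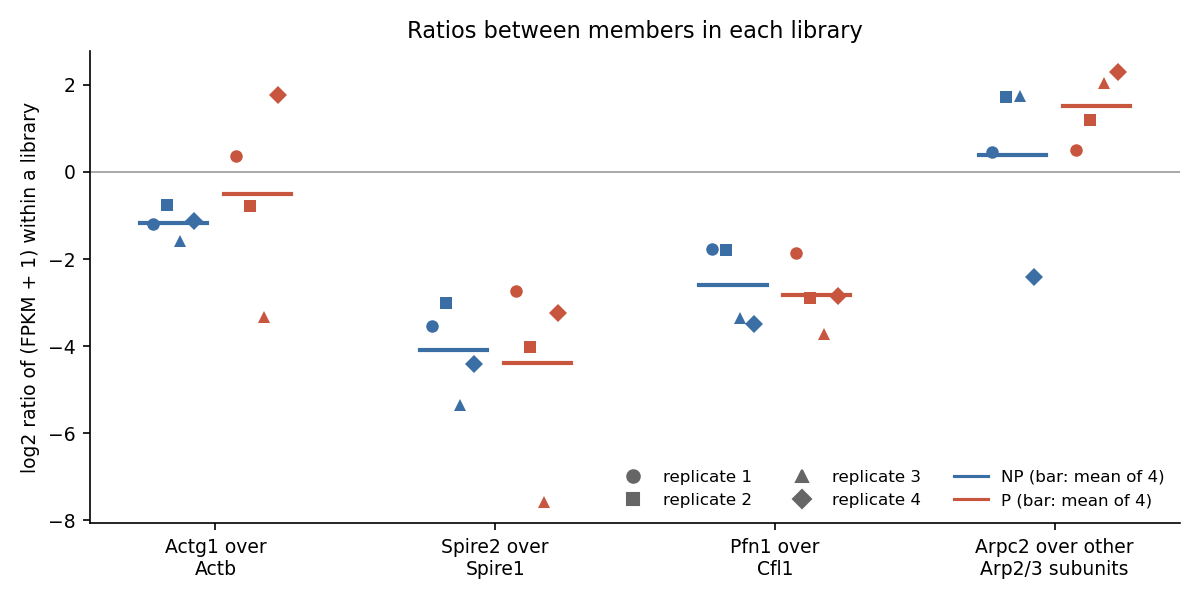
Log2 ratio of (FPKM + 1) within each library (vertical axis) for 4 pairs, with replicate numbers as symbols and bars at the means of the 4 NP (blue) and 4 P (red) libraries. NP and P overlap in each ratio, and the P libraries spread from −3.34 to 1.77 for Actg1 over Actb.

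The wider pathway was described with 9 lists of actin regulators, which held 140 further genes, 121 of them tested. Of the 121, 0 were called by limma, the lowest adjusted p being 0.299. All 4 NP libraries lay above all 4 P libraries in 14 of the 121 (11.6%), beside 5.92% of all genes tested, and all 4 P above all 4 NP in 1, beside 0.357%. With each library scaled to one median FPKM these counts were 4 and 10, beside 2.09% and 5.04% of all genes tested, so the split between the datasets moved with the scaling as it did over all genes. At an unadjusted p below 0.05 limma gave 19 genes higher in NP and 1 higher in P, beside 9.47% and 0.476% of all genes tested. The median log2 fold change of the 121 was −0.40, against −0.39 for all genes. Log2 fold changes lay below 0 in 70.2% of the 121, beside 71.4% of all genes tested. With each library scaled to one median FPKM the median of all genes was 0.21. The sign counts of the lists below hold for the FPKM as deposited.

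Among the 15 tested formins and Spire nucleators, 13 had a log2 fold change below 0, with a median of −0.70. Fmnl3, a formin of the cell cortex, was the most abundant, above Fmn2 in every library, at 486 ± 36.5 FPKM in NP and 307 ± 86.2 in P. Its 4 NP libraries, from 461 to 540, lay above its 4 P libraries, from 204 to 396 (log2 fold change −0.70, adjusted p = 0.637), while the sign became positive, 0.63, with each library scaled to one median FPKM. Diaph3, a formin listed as Diap3, measured 36.2, 32.2, 60.0 and 106 FPKM in NP and 3.90, 18.3, 10.6 and 2.93 in P, also without overlap (log2 fold change −2.72, adjusted p = 0.376). Cobl, a nucleator at 5.50 FPKM in NP and 0.555 in P, was the third without overlap.

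The actins list held 4 tested genes besides 3 near or at 0, and Actg2, the enteric smooth muscle γ-actin, was the one without overlap. It measured 33.5, 37.0, 20.2 and 8.09 FPKM in NP and was listed at 0 in all 4 P libraries, with an adjusted p of 0.299. It passed the threshold under 4 other settings, with adjusted p-values of 0.0460 and 0.0700 at pseudocounts of 0.1 and 0.01, 0.0781 for genes with a mean FPKM above 1 and 0.0449 without a trend, while its adjusted p reached 0.614 under another. Actins share long stretches of coding sequence, so reads may be split among them.

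Of the 15 tested genes of Rab11 vesicles and myosin V transport, 9 lay below 0 and 6 above, with a median of −0.38. Rab10, a GTPase of exocytic vesicles, had no overlap, at 20.3 ± 14.2 FPKM in NP and 4.50 ± 1.69 in P (log2 fold change −1.78, adjusted p = 0.478). Rab27a, a GTPase that recruits myosin V to organelles, had the highest level apart from Myo5b and Rab11a, at 68.5 ± 45.5 in NP and 109 ± 146 in P, where replicate 4 alone reached 328.

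The 10 subunits of the Arp2/3 complex divided into 6 above 0 and 4 below, with a median of 0.14. Arpc1b, a subunit with the alternative form Arpc1a, measured 42.6, 24.1, 45.4 and 58.7 FPKM in NP and 10.1, 1.65, 5.91 and 0.220 in P, without overlap (log2 fold change −3.39, adjusted p = 0.344). Its alternative Arpc1a had means of 17.9 in NP and 24.7 in P, with overlap. Arpc4, the partner of Arpc2, had the highest mean over the 8 libraries, at 67.9 ± 36.2 in NP and 146 ± 140 in P.

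The 17 tested activators of the Arp2/3 complex had 16 values below 0 and 1 above, with a median of −0.42. Washc1, listed as Wash, which activates the complex on endosomes, had no overlap at 36.9 ± 21.1 FPKM in NP and 1.89 ± 1.14 in P (log2 fold change −3.52, adjusted p = 0.344). Nckap1, a subunit of the WAVE complex, had none either, at 26.6 ± 3.68 and 7.67 ± 5.92 (log2 fold change −1.87, adjusted p = 0.421). Brk1, the smallest WAVE subunit, listed as 6720456B07Rik, was the most abundant, at 307 ± 237 in NP and 231 ± 177 in P, with overlap.

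Of the 28 tested monomer-binding, severing and capping proteins, 23 lay below 0 and 5 above, with a median of −0.57. Pfn2, the second profilin, was the 1 gene of all the lists with P above NP and no overlap. It measured 25.2, 19.6, 20.9 and 8.55 FPKM in NP and 55.2, 58.5, 48.8 and 35.3 in P, a log2 fold change of 1.43 (SE 0.61, adjusted p = 0.471). Capzb, a subunit of the protein that caps filament ends, measured 281, 247, 56.6 and 57.6 in NP and 23.9, 38.4, 22.7 and 7.92 in P, without overlap (log2 fold change −2.54, adjusted p = 0.405). Limk2, a kinase that inactivates cofilin, was the most abundant at 176 ± 49.0 in NP and 174 ± 176 in P. Tmod2, which caps pointed ends, also had no overlap, at means of 1.43 and 0.00512.

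Of the 14 tested genes of cortical myosin II, 8 lay above 0 and 6 below, with a median of 0.11. Myl12a, a regulatory light chain, had no overlap at 75.0 ± 26.6 FPKM in NP and 10.4 ± 6.50 in P (log2 fold change −2.89, adjusted p = 0.344). Rdx, radixin, which links actin to the membrane, had the highest mean over the 8 libraries, at 276 ± 163 and 310 ± 106. In P the mean of Myl6, of the same list, was higher, at 329 ± 196. Rac3, a small GTPase, had no overlap at 59.8 ± 30.9 and 19.8 ± 4.27 (log2 fold change −1.41, adjusted p = 0.487). Rac1, the GTPase upstream of the WAVE complex, measured 93.3 ± 88.1 and 82.3 ± 73.7. Of the 14 tropomyosins, crosslinkers and related genes, 10 lay below 0 and 4 above, with a median of −0.77. Actn4, an α-actinin crosslinker, had no overlap at 30.9 ± 5.54 and 8.20 ± 5.70 (log2 fold change −2.06, adjusted p = 0.416). Vasp, which promotes filament elongation, had none at means of 3.69 and 1.20. Cobl, Tmod2 and Vasp were named after their values had been seen. Each list's counts include those of the 10 genes it holds.

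**Figure D5:**
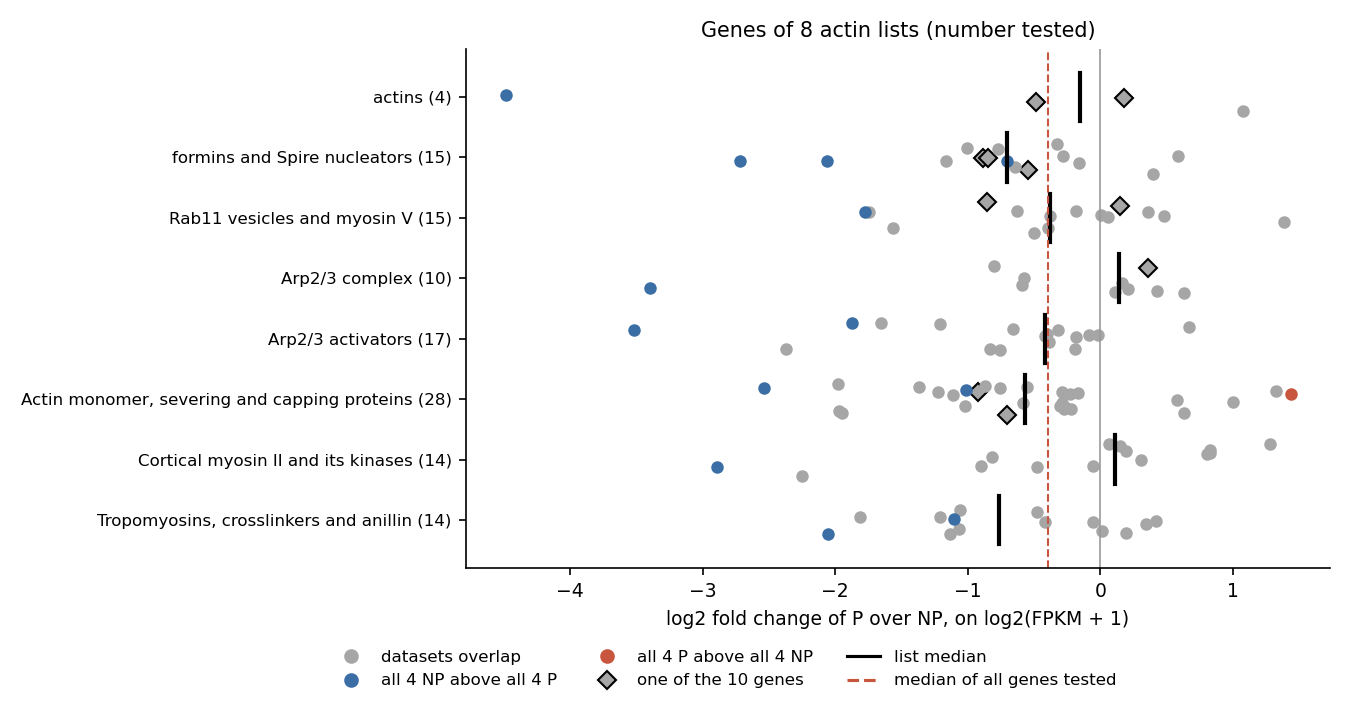
Log2 fold change of P over NP on log2(FPKM + 1), on the FPKM as deposited, for each tested gene of 8 of the 9 lists (rows, with the number tested), with diamonds for the 10 genes, blue for genes whose 4 NP libraries lie above all 4 P libraries and red for the reverse. Black bars mark list medians and the dashed line the median of all genes tested, −0.39. Pfn2 is the 1 red point, while with each library scaled to one median FPKM 10 listed genes had all 4 P libraries higher, beside 5.04% of all genes tested.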

How the data were processed

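The authors trimmed the reads of the 8 libraries (4 NP, 4 P) with Trim Galore 0.4.1, mapped them with Hisat2 2.0.5 to GRCm38 and deposited FPKM values of 25574 genes per library, computed in Seqmonk, on a linear scale and without further normalization between libraries. Deposited tables of expressed genes (means and ratios of the datasets) and of the authors' DESeq2 comparison were not used. Groups came from the sample titles. FPKM are not counts, so limma 3.58.1 in R 4.3.3 (lmFit, eBayes with a trend, 2-sided) was run on log2(FPKM + 1), keeping genes whose mean FPKM exceeded 0.1 in NP, in P or in both, adjusted by Benjamini-Hochberg with a threshold of 0.1. A fold change on this scale understates that of low genes. The script was tested on simulated data.

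FPKM of a gene are multiples of the value of 1 step, called a read here, and library depth was worked out from this spacing. This gave whole reads (within 0.01 of a step) for 13126 of 15585 genes with a value above 0. The annotated exon length was used for 6974 genes and a length searched between 100 and 30000 bp for 6152. Recovered reads were used for depth and for voom as an alternative. Gene lists came from textbook knowledge. Genes named were the 10 members and, of each list, those called, those without overlap and with a mean FPKM of at least 10 in 1 dataset, and the most abundant gene that is no member. The counts of 1 list and the values of 1 gene named by this rule are not reported here. The members and lists were chosen with earlier results of these data known. Transcripts were those of GENCODE M21 (GRCm38) whose 3′ end was closest to that in the table, within 50 bases, with a 3′ UTR of at least 100 bases. Copies were searched with blastn 2.17.0. Older symbols were matched through RefSeq synonyms. Ratios and summaries were computed with numpy 2.4.6 and pandas 2.3.3 in Python 3.11.15, and figures with matplotlib 3.10.9.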

Additional observations from a re-analysis of the deposited data

Results flagged for a closer look

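In groups of 4 libraries, 6 of the 66 groups of values looked at had 1 library far from the other 3 by Dixon's criterion. Its chance rate of about 1 in 20 holds for normally distributed values, which FPKM on a linear scale need not be. The groups also shared the same 8 libraries, so the count cannot be judged against that rate. Of the 10 members, Myo5b measured 719.687 FPKM in P replicate 2, against 142 to 221 in the other P libraries, and Arpc2 measured 137.587 in P replicate 4, against 49.7 to 60.2. Of the listed genes, Rab27a measured 327.544 in P replicate 4, against 25.3 to 45.7. Rac3 measured 26.1675 in P replicate 1, against 17.1 to 18.3. Fmnl3 measured 540.036 in NP replicate 4, against 461 to 473. Limk2 measured 103.168 in NP replicate 3, against 194 to 209. A cause of these values was not tested.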

How the results depend on the processing

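None of the 10 members was called under any of the 17 alternatives run. Their lowest adjusted p under an alternative lay between 0.526 and 0.792. With each library scaled to one median FPKM, log2 fold changes turned positive for Fmn2 (0.16), Spire1 (0.79), Spire2 (0.18), Rab11a (0.46), Actb (0.84), Cfl1 (0.62), Pfn1 (0.24), Fmnl3 (0.63), 6720456B07Rik (0.93), Limk2 (0.77) and Rac1 (1.21), and listed genes without overlap numbered 10 with P higher and 4 with NP higher. With quantile normalization these were 3 and 8, with the shares over all genes not given, and Rac1 was at 0.17. With voom on recovered reads, Myo5b was at −0.043, Rab27a at −0.075 and Rac1 at 0.34. At pseudocounts of 0.1 and 0.01, with a mean FPKM above 1 and without a trend, 1 listed gene (Actg2) was called with NP higher.

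Leaving out 1 library moved log2 fold changes across 0 for Myo5b (−0.37 to 0.44), Arpc2 (−0.48 to 0.79), Actg1 (−0.61 to 1.03), Spire2 (−1.56 to 0.15), Rab27a (−0.75 to 0.47), Rdx (−0.080 to 0.61), Rac1 (−0.63 to 0.45), Arpc4 (−0.29 to 1.58), 6720456B07Rik (−0.86 to 0.064) and Limk2 (−1.18 to 0.10), and ratio differences for Actg1 over Actb (−0.092 to 1.61), Spire2 over Spire1 (−0.86 to 0.76) and Pfn1 over Cfl1 (−0.55 to 0.078), while that for Arpc2 over other subunits stayed positive (0.19 to 1.58). Members without overlap and with NP higher ranged from 0 to 1, with Spire1 without NP replicate 2 and Actb without NP replicate 4. Listed genes without overlap and with P higher ranged from 1 to 3, being 3 without NP replicate 1, P replicate 3 or P replicate 4 and 2 without NP replicate 2. Those with NP higher ranged from 15 to 19. Fewer libraries make a lack of overlap easier to meet for any gene. The shares over all genes are not given for these counts of members and listed genes. The cause of these changes was not tested.

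NP and P fractions came from the same gradients, but the sources used here do not say that their libraries were numbered alike. Deviations of libraries from the means of NP and P were correlated at 0.0518 to 0.251 for libraries with the same number and at −0.135 to 0.136 for other numbers. For each P library the highest value was that with the NP library of the same number. NP replicate 2, in turn, was highest with P replicate 1, at 0.136 against 0.0518 with P replicate 2. With a replicate block, 1 gene of all tested was called, against 3 without it, and 0 of the members and 0 of the listed genes were called; its fold changes equal those without the block by construction. Within numbers, NP exceeded P in all 4 for 5 of the 10 members (Spire1, Rab11a, Actb, Cfl1 and Pfn1), beside 24.0% of the listed genes and 16.5% of all genes tested. P exceeded NP in all 4 for 0 of the 10 members, beside 2.20% of all genes tested. Both counts used the FPKM as deposited. With each library scaled to one median FPKM, the log2 fold changes of all 10 members lay above 0. Counting error is largest where few reads were recovered, such as 16 for Fmn2 and 12 for Pfn1 in P replicate 4.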
